A study of Homo sapiens with 12 samples.

Results

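The genes described here were 10 members of the Wnt signaling pathway, chosen by symbol and found by gene identifier among the 58721 genes of the count table. They comprised 4 secreted antagonists (DKK1, DKK2, DKK3 and SFRP1), 2 ligands best known for signaling without beta-catenin (WNT5A and WNT5B) and 4 genes used as readouts of beta-catenin activity (AXIN2, LEF1, TCF7 and NKD1). Of the 10 genes, 9 passed the filter on low counts and were among the 21013 genes tested, and the tenth, DKK1, is described by its counts alone.

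In canonical Wnt signaling, a secreted Wnt protein joins a Frizzled receptor to the coreceptor LRP5 or LRP6, which stops the destruction of beta-catenin and lets it switch on target genes together with the transcription factors of the TCF/LEF family. The Dickkopf proteins DKK1 and DKK2 act at the coreceptor, and secreted Frizzled-related proteins bind the Wnt ligands. AXIN2 and NKD1 are targets that feed back to restrain the pathway. In Ewing sarcoma, a bone and soft tissue tumor driven by the EWS-FLI1 fusion protein, members of the Dickkopf family have been studied as both targets and opponents of the fusion protein.

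Expression was measured by RNA-seq in EW8 and TC71, 2 human Ewing sarcoma cell lines that carried a lentiviral construct coding for c-Jun and c-Fos, which pair to form the AP-1 transcription factor. Both transgenes stood behind the doxycycline-responsive TRE3G promoter, joined by a self-cleaving peptide element, and the Tet-On 3G transactivator was driven by the EF1 alpha promoter. The 4 groups were EW8 with vehicle (DMSO), EW8 with doxycycline at 2000 ng/ml, TC71 with vehicle and TC71 with doxycycline at 2000 ng/ml, each treated for 72 h and each with 3 libraries. The vehicle groups, whose genotype is labeled WT, carried the same construct as the doxycycline groups, and doxycycline-treated cells that lack it were not analyzed here. Doxycycline itself and the induced proteins therefore cannot be told apart as the source of a change. The labels do not say whether the 3 libraries of a group came from separate cultures, so the p-values measure the spread between these libraries, which may be technical.

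The libraries held between 42860665 and 60853649 counts, and the levels below are in CPM, the usual unit of read counts scaled to library size. A level of 6 counts (3 read pairs) in a library was taken as the floor. Mean JUN levels rose from 21.6 to 473.7 CPM in EW8 and from 20.7 to 755.5 CPM in TC71, and mean FOS levels from 36.8 to 1078 CPM and from 11.7 to 1580 CPM. A marker was taken as above the floor in a group where at least 1 library exceeded it. Of 7 Ewing sarcoma markers, all were above the floor in 3 of the groups and 6 were above it in TC71 with vehicle. The marker CCK had only 0 to 10 counts per library in TC71 with doxycycline. In EW8 with doxycycline, mean LIPI levels fell from 47.7 to 18.1 CPM and those of CCK rose from 0.378 to 4.88 CPM. TC71 vehicle replicate 1 stood apart from its group, with a chi-square per gene of 65 and 62.5 against the other replicates, where the other 10 replicate pairs had values from 5.38 to 11.1. The leukocyte marker PTPRC was at 65.9 CPM in EW8 with vehicle and 74.9 CPM with doxycycline, and at 0.0237 and 0.0644 CPM in TC71. Of 5 leukocyte markers, 3 or 4 were above the floor in EW8 and 2 or 3 in TC71, and 1 was at 0 in each group other than EW8 with vehicle. The summed level of 4 endothelial markers moved with doxycycline, from between 7.40 and 8.98 CPM to between 38.5 and 46.1 CPM in EW8. In TC71 it moved from between 1.95 and 2.77 CPM to between 10.3 and 12.6 CPM. This was mainly through PECAM1 (from 7.07 to 37.5 CPM in EW8 and from 0 to 3.66 CPM in TC71) and, in TC71, CLDN5 (from 2.28 to 7.32 CPM). CLDN5 also rose in EW8, from 0.383 to 2.41 CPM. VWF rose from 0.0655 to 2.53 CPM in EW8 and from 0 to 0.298 CPM in TC71. CDH5 went from 0.873 to 0.601 CPM in EW8 and from 0.0257 to 0.173 CPM in TC71. Of these markers, 3 were above the floor in EW8 and 1 in TC71 with vehicle and all 4 in both lines with doxycycline, while the endothelial marker CDH5 was under 1 CPM on average in every group. The summed level of 4 epithelial markers was between 0.229 and 1.19 CPM in TC71 with vehicle and between 11.4 and 12.6 CPM with doxycycline, mainly through EPCAM, and under 1 CPM in all EW8 libraries. The part of these markers in the results below was not tested. In such bulk libraries, fewer cells of a type and less RNA per cell cannot be told apart.

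The first comparison addressed the response of these genes to the induction of c-Jun and c-Fos. DKK2, WNT5A and DKK3 were called in both lines: DKK2 and WNT5A fell more than 2-fold, and DKK3 rose more than 6-fold. AXIN2 fell in EW8 and was not called in TC71. Thus, of the 9 tested members, edgeR called 1 higher and 3 lower in EW8, and 1 higher and 2 lower in TC71, with the thresholds of an adjusted p of 0.05 and a 2-fold change. Among all 21013 genes tested, 11.4% were called higher and 3.38% lower in EW8, and 12.3% and 3.67% in TC71, so that 14.8% and 16% of the genes were called in either direction. With the adjusted p alone, 1 member was higher and 4 were lower in EW8, where the shares of all genes were 21.9% and 22%, and in TC71 2 members were higher and 2 lower, where the shares were 25.1% and 20.4%. Counting DKK1, all libraries with doxycycline lay above all vehicle libraries for 3 members in EW8 and 2 in TC71, and below them for 5 and 2, where the shares of all tested genes were 26.9%, 27.6%, 29.1% and 23.1%. The median log2 fold change of the 9 members was -0.68 in EW8 and -0.22 in TC71, where that of all tested genes was -0.03 and 0.

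**Figure D1:**
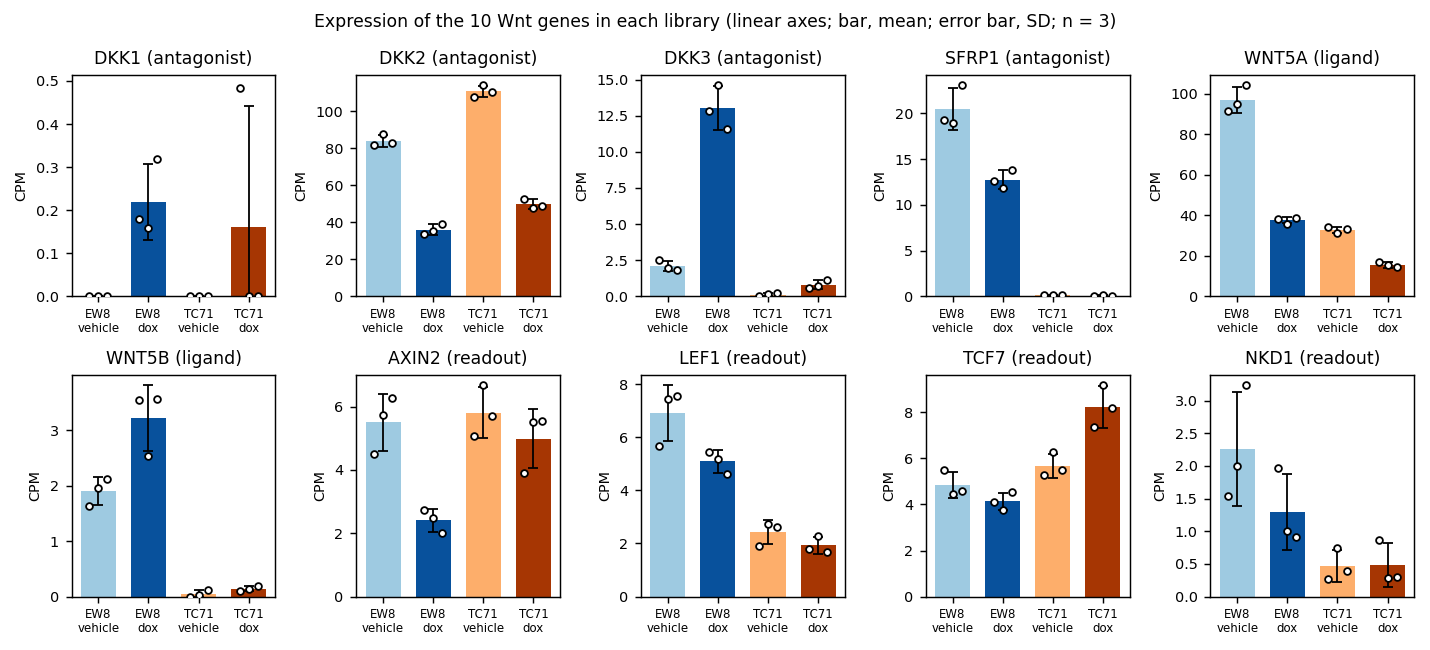
CPM of each of the 10 genes in the 12 libraries (points), with the mean (bar) and SD (error bar) of the 3 libraries in each of the 4 groups, each panel on its own linear axis from 0. DKK2 and WNT5A are lower and DKK3 is higher with doxycycline (dox) in both lines, and SFRP1 and WNT5B are near 0 in TC71.

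DKK2 (ENSG00000155011.8, hg38 chromosome 4, 106921802 to 107283806, minus strand) encodes a Dickkopf protein that binds the LRP coreceptors. Per exon length it was the most abundant of the 4 antagonists in every group. Its level was 81.5, 87.4 and 82.8 CPM in the EW8 vehicle libraries and 33.5, 35.3 and 39.2 CPM with doxycycline. In TC71 it was 107.7, 114 and 110 CPM with vehicle and 52.7, 47.4 and 48.9 CPM with doxycycline. The groups of each line did not overlap. The log2 fold change was -1.22 (SE 0.07, adjusted p 5.58e-11, edgeR quasi-likelihood test with Benjamini-Hochberg adjustment) for EW8 cells, a 2.33-fold decrease. For TC71 cells it was -1.16 (SE 0.07, adjusted p 9.2e-11), a 2.23-fold decrease. The responses of the lines differed by 0.07 (SE 0.1), which did not pass the test (adjusted p 0.71). In order of level, TC71 with vehicle was highest, followed by EW8 with vehicle, TC71 with doxycycline and EW8 with doxycycline. Each neighboring pair differed by the edgeR test on all 12 libraries (adjusted p 4.28e-05, 1.34e-08 and 1.02e-05).

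DKK3 (ENSG00000050165.17, chromosome 11, 11963106 to 12009769, minus strand) encodes the most divergent Dickkopf protein, whose role in Wnt signaling is less clear than that of DKK1 or DKK2. Its level in EW8 was 2.53, 1.94 and 1.81 CPM with vehicle and 12.9, 14.6 and 11.6 CPM with doxycycline. In TC71 it was 0.0382, 0.129 and 0.194 CPM with vehicle, from 2, 8 and 10 counts, and 0.582, 0.717 and 1.14 CPM with doxycycline, from 24, 30 and 50 counts. DKK3 was therefore induced in both lines but from very different levels, and TC71 with doxycycline stayed below EW8 with vehicle (adjusted p 0.000335). The log2 fold change in EW8 was 2.64 (SE 0.25, adjusted p 8.1e-08), and that of TC71 was 2.73 (SE 0.4, adjusted p 1.53e-05). DKK2 and DKK3 thus moved in opposite directions in both lines.

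SFRP1 (ENSG00000104332.11, chromosome 8, 41261958 to 41309497, minus strand) encodes a secreted Frizzled-related protein that binds Wnt ligands. Its level in EW8 was 19.3, 19 and 23.1 CPM with vehicle and 12.6, 11.9 and 13.8 CPM with doxycycline, without overlap. The log2 fold change of -0.68 (SE 0.14, adjusted p 0.000694) passed the test but stayed under the fold limit, so that SFRP1 was not called. In TC71 the 3 vehicle libraries held 8, 6 and 6 counts and the doxycycline libraries 2, 6 and 2 counts, at or near the floor, and a difference was not detectable at this depth (adjusted p 0.379).

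DKK1 (ENSG00000107984.9, chromosome 10, 52314296 to 52318042, plus strand), the best studied Dickkopf antagonist, had 0 counts in all 6 vehicle libraries. With doxycycline it had 10, 8 and 14 counts in EW8 and 20, 0 and 0 counts in TC71. The 3 EW8 libraries with doxycycline lay above the floor at 0.179, 0.158 and 0.320 CPM, and their mean of 0.219 CPM was at least 1.62-fold higher than the floor of the vehicle group. In TC71 the signal came from doxycycline replicate 1 alone, at 0.485 CPM, and without that library all TC71 libraries are at 0. When the filter on low counts was left out, edgeR called DKK1 higher, with an adjusted p of 0.00417 for EW8 and 0.00644 for TC71, whereas the adjusted p of DESeq2 was 0.242 and 0.264. Of the exons of DKK1, 9.61% overlap the antisense gene PRKG1-AS1, which had 0 counts in all libraries.

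Promoter sequence from RefSeq (GRCh38.p14), taken as the 250 bases before the transcription start, was matched for 5 of the 10 genes with 8 windows: DKK1, WNT5A, WNT5B, LEF1 and TCF7. DKK2, DKK3, SFRP1, AXIN2 and NKD1 were not matched. The windows were searched on both strands for an AP-1 motif (TGANTCA), a CRE motif (TGACGTCA), a TCF/LEF motif (CTTTGAT), a wider TCF/LEF motif (CTTTGNT, which also takes in the former) and a pair of the GGAA element bound by EWS-FLI1 (GGAAGGAA). The wider TCF/LEF motif was found in 2 of the 8 windows, where 13.2% of the 35116 RefSeq windows hold it. The other motifs were found in 0 of the 8, where 6.57% of all windows hold the AP-1 motif, 1.65% the CRE motif, 2.26% the narrower TCF/LEF motif and 3.06% the GGAA pair. The window of DKK1 is shown because this gene had 0 counts with vehicle and had counts with doxycycline, and the capitals mark the wider TCF/LEF match, 76 to 70 bases before the start.
DKK1 promoter, chr10:52314031-52314280, plus strand: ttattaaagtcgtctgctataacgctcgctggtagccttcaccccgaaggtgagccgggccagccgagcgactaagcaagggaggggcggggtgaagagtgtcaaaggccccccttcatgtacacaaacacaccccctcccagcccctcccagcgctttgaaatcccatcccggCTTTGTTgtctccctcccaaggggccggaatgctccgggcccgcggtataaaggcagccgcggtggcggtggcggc

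WNT5A (ENSG00000114251.14, chromosome 3, 55465715 to 55490539, minus strand) encodes the main ligand of beta-catenin-independent signaling and was, per exon length, the more abundant of the 2 ligands in every group. In EW8 it was at 91.5, 95.2 and 104.3 CPM with vehicle and 38.2, 35.9 and 38.7 CPM with doxycycline. In TC71 it was at 34.0, 31.4 and 33.1 CPM with vehicle and 17.1, 15.2 and 14.4 CPM with doxycycline. WNT5A fell in both lines, with log2 fold changes of -1.37 (SE 0.08, adjusted p 6.19e-11) for EW8 and -1.08 (SE 0.08, adjusted p 2.86e-09) for TC71. The difference between these responses, 0.29 (SE 0.11), did not pass the test (adjusted p 0.0777). EW8 with doxycycline remained slightly above TC71 with vehicle, at 37.6 ± 1.54 against 32.8 ± 1.36 CPM (SD, n = 3, adjusted p 0.0327, edgeR). The window of the more downstream of the 2 RefSeq starts of WNT5A is shown because the gene fell in both lines, and it holds 0 matches to the 5 motifs, as does the other window.
WNT5A promoter, chr3:55481399-55481648, minus strand: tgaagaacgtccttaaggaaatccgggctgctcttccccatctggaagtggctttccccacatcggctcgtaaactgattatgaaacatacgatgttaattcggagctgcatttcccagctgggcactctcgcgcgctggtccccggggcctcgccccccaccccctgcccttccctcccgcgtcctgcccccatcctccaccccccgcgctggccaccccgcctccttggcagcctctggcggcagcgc

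WNT5B (ENSG00000111186.12, chromosome 12, 1529891 to 1647243, plus strand), the close paralog of WNT5A, was not called in either line. Its level in EW8 was 1.62, 1.96 and 2.12 CPM with vehicle and 3.54, 2.53 and 3.56 CPM with doxycycline, so that the groups did not overlap, but the log2 fold change of 0.75 (SE 0.36) did not pass the test (adjusted p 0.103). In TC71 the vehicle libraries held 0, 2 and 6 counts and the doxycycline libraries 4, 6 and 8 counts (adjusted p 0.086). This last test depended on TC71 vehicle replicate 3, without which WNT5B was called higher (adjusted p 0.00814, log2 fold change 2.85).

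**Figure D2:**
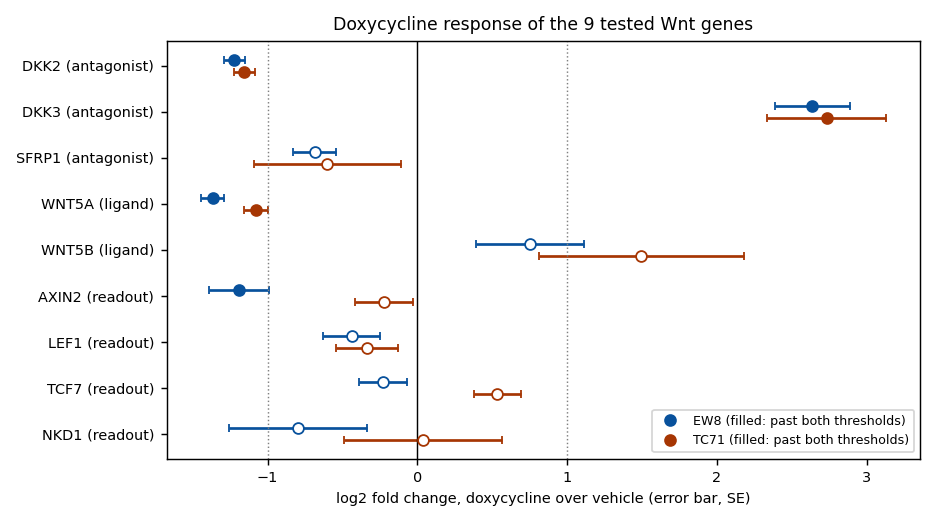
Log2 fold change (doxycycline over vehicle) with its SE for the 9 tested genes, EW8 in blue and TC71 in brown, with dotted lines at the fold limit of 1 on either side of 0. Filled points, past an adjusted p of 0.05 and the fold limit, are those of DKK2, DKK3 and WNT5A in both lines and of AXIN2 in EW8.

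Of the 4 readouts of beta-catenin activity, 1 was called in EW8 and 0 in TC71 by edgeR (2 and 1 at an unadjusted p under 0.05). AXIN2 (ENSG00000168646.12, chromosome 17, 65528563 to 65561647, minus strand) encodes a scaffold of the beta-catenin destruction complex and is a widely used target of the pathway. It was at 4.51, 5.73 and 6.27 CPM in EW8 with vehicle and 2.72, 2.49 and 2.01 CPM with doxycycline, without overlap. In TC71 it was at 5.06, 6.67 and 5.69 CPM with vehicle and 3.90, 5.52 and 5.53 CPM with doxycycline, and these groups overlapped. AXIN2 fell by 1.19 (SE 0.2, adjusted p 8.94e-05) on the log2 scale in EW8, 2.28-fold, and its log2 fold change was -0.22 (SE 0.19, adjusted p 0.388) in TC71. Of its exons, 25.18% overlap an uncharacterized gene on the same strand, which had 0 counts, and reads within the shared part were left out of both.

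TCF7 (ENSG00000081059.19, chromosome 5, 134114711 to 134151865, plus strand), which encodes TCF1, a DNA-binding partner of beta-catenin, was at 5.50, 4.45 and 4.58 CPM in EW8 with vehicle and 4.12, 3.76 and 4.52 CPM with doxycycline (log2 fold change -0.23, SE 0.16, adjusted p 0.272). In TC71 it was at 5.27, 6.28 and 5.51 CPM with vehicle and 7.37, 9.18 and 8.19 CPM with doxycycline. All TC71 libraries with doxycycline lay above those with vehicle, and the log2 fold change of 0.53 (SE 0.15, adjusted p 0.00834) passed the test but not the fold limit. Across the alternatives its adjusted p ranged from 0.00476 to 0.0786. TCF7 shares 2.09% of its exon length with SKP1 on the opposite strand, a gene with 113756 counts over all libraries against 3319 for TCF7, and counting did not use strand. The window of the more downstream of the 2 RefSeq starts of TCF7 is shown because the response of this readout differed between the lines (below), and the capitals mark the wider TCF/LEF match on the reverse strand, 50 to 44 bases before the start.
TCF7 promoter, chr5:134123368-134123617, plus strand: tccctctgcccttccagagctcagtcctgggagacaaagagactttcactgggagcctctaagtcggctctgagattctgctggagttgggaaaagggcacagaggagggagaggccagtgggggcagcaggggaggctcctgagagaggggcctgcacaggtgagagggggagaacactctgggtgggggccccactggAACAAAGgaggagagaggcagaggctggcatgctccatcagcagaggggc

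LEF1 (ENSG00000138795.9, chromosome 4, 108047545 to 108168956, minus strand), which encodes another DNA-binding partner of beta-catenin, was at 5.68, 7.45 and 7.56 CPM in EW8 with vehicle and 5.46, 5.20 and 4.61 CPM with doxycycline. All doxycycline libraries lay below all vehicle libraries, although the log2 fold change of -0.44 (SE 0.19) did not pass the test (adjusted p 0.0735). In TC71 it was at 1.91, 2.74 and 2.62 CPM with vehicle and 1.79, 2.29 and 1.68 CPM with doxycycline (adjusted p 0.211). NKD1 (ENSG00000140807.6, chromosome 16, 50548330 to 50649249, plus strand), which encodes a feedback inhibitor that binds Dishevelled, was low in every group. Its level in EW8 was 1.53, 2.01 and 3.23 CPM with vehicle and 1.97, 1.01 and 0.914 CPM with doxycycline (adjusted p 0.182), and in TC71 all 6 libraries were between 0.267 and 0.873 CPM (adjusted p 0.976).

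The next comparison asked whether the lines differed in their response. The difference, TC71 minus EW8 on the log2 scale, passed an adjusted p of 0.05 for 2 of the 9 tested members, both of them readouts and both more positive in TC71, where 12.2% of all tested genes differed in this direction and 7.07% in the other. It was 0.97 (SE 0.28, adjusted p 0.0196) for AXIN2, which fell in EW8 and was not called in TC71. For TCF7 it was 0.76 (SE 0.22, adjusted p 0.0207), with a negative fold change in EW8 and a positive fold change in TC71. Both were close to the threshold and depended on single libraries. AXIN2 did not pass without EW8 vehicle replicate 3 (adjusted p 0.0988), EW8 doxycycline replicate 3 (0.0542), or TC71 doxycycline replicate 2 (0.0849) or 3 (0.0866). TCF7 did not pass in 6 of the 12 fits that left out a library (largest adjusted p 0.111), namely without EW8 vehicle replicate 1 or 3, EW8 doxycycline replicate 2, TC71 vehicle replicate 1, or TC71 doxycycline replicate 2 or 3. For TC71 vehicle replicate 1, the library that stood apart, the differences without it were 0.77 for AXIN2 (adjusted p 0.0467) and 0.60 (adjusted p 0.0632) for TCF7. For the 3 tested antagonists among the members, the difference was 0.07 (SE 0.1) for DKK2, 0.09 (SE 0.4) for DKK3 and 0.08 (SE 0.66) for SFRP1. Their adjusted p by edgeR were 0.71, 0.932 and 0.977, and the SE of DKK3 and SFRP1 does not exclude sizable differences. In the wider lists below, 2 of 11 tested feedback targets, AXIN2 and TCF7, had a more positive response in TC71, and 3 had a more negative response. Of 15 tested antagonists there, 0 had a more positive response in TC71 and 1 had a more negative response.

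**Figure D3:**
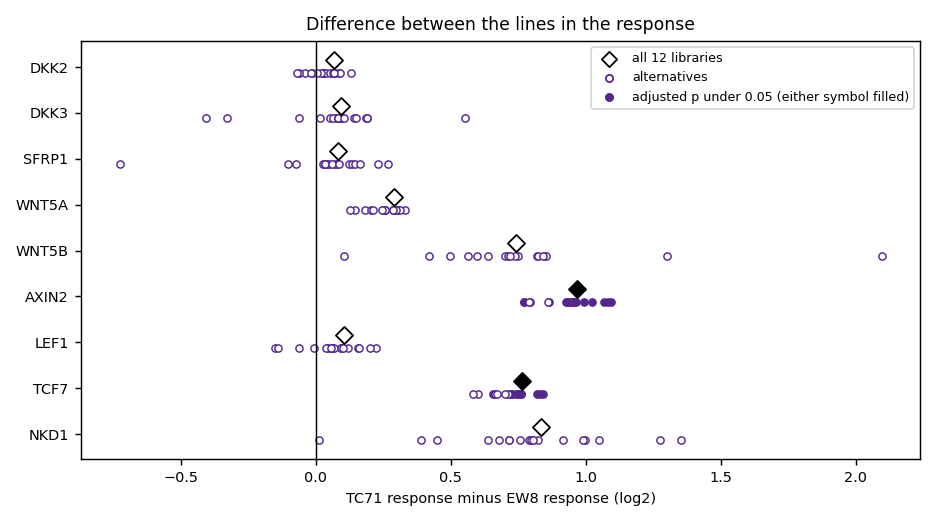
Difference between the lines in the response to doxycycline (TC71 minus EW8, log2) for the 9 tested genes, as fitted on all 12 libraries (diamonds) and under each alternative (circles), filled where the adjusted p was under 0.05. Only AXIN2 and TCF7 have filled symbols, and some of their circles are open.

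Levels were then compared between the lines. With vehicle, 6 of the 9 tested members were called lower in TC71 than in EW8 and 0 were called higher by edgeR (7 of the 9 had an unadjusted p under 0.05 in either direction), where 18.9% of all tested genes were lower and 11.6% higher. The largest log2 difference was that of SFRP1, at 20.5 ± 2.28 CPM in EW8 and 0.122 ± 0.0285 CPM in TC71 (SD, n = 3, log2 difference -7.38, adjusted p 8.62e-15, edgeR). WNT5B was at the floor in TC71, at least 16.3-fold lower than in EW8. The log2 difference was -4.09 for DKK3, -1.56 for WNT5A, -1.51 for LEF1 and -2.26 (adjusted p 0.000597) for NKD1. DKK2 was the exception among the 3 tested antagonists, higher in TC71 by 0.40 (adjusted p 4.28e-05), which is under the fold limit. AXIN2 (0.08, adjusted p 0.758) and TCF7 (0.23, adjusted p 0.209) did not pass the edgeR test with vehicle.

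With doxycycline, the same 6 genes were lower in TC71 and 1, AXIN2, was called higher, where 18.4% of all tested genes were lower and 12.6% higher. SFRP1 was at the floor in TC71, at least 87.7-fold below EW8. The log2 difference was 1.05 (adjusted p 0.000195) for AXIN2 and 1.00 (adjusted p 2.25e-05) for TCF7, on either side of the fold limit, and 5 of the 12 fits that left out a library put AXIN2 under that limit (lowest 0.90), namely those without EW8 vehicle or doxycycline replicate 3, TC71 vehicle replicate 1, or TC71 doxycycline replicate 2 or 3. NKD1 was lower in TC71 by a log2 difference of -1.43 (adjusted p 0.0198), a call lost without EW8 doxycycline replicate 1 or TC71 doxycycline replicate 2 or 3 (largest adjusted p 0.134). In the order of levels, neighboring groups did not pass the test among the vehicle groups and TC71 with doxycycline for AXIN2. The same held between vehicle and doxycycline within each line for LEF1, NKD1 and WNT5B, and within TC71 for SFRP1. For TCF7 it held between TC71 and EW8 with vehicle and between the 2 EW8 groups.

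Levels per kilobase of exon length allow a rough comparison of genes. The length takes in all annotated exons, 17425 bp for NKD1 and 10063 bp for TCF7 against 4319 bp for DKK2. Where the expressed transcript is shorter, the level per kilobase is too low. The 4 antagonists summed to 24.1 ± 0.633 CPM per kb in EW8 with vehicle and 13.7 ± 0.701 with doxycycline, and to 25.7 ± 0.738 and 11.8 ± 0.718 CPM per kb in TC71 (SD, n = 3). No test was made on these sums. DKK2 held 99.8% of the sum in TC71 with vehicle and 97.9% with doxycycline, and 80.5% and 60.9% in EW8, where SFRP1 and DKK3 made up most of the rest. The 2 ligands summed to 13.6 ± 0.943 and 5.83 ± 0.345 CPM per kb in EW8, and to 4.45 ± 0.183 and 2.14 ± 0.177 CPM per kb in TC71, of which WNT5A held between 87.2% and 99.7%. The 4 readouts were low in all groups, at 2.95 ± 0.356 and 1.90 ± 0.158 CPM per kb in EW8 and 2.15 ± 0.295 and 2.16 ± 0.277 CPM per kb in TC71.

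**Figure D4:**
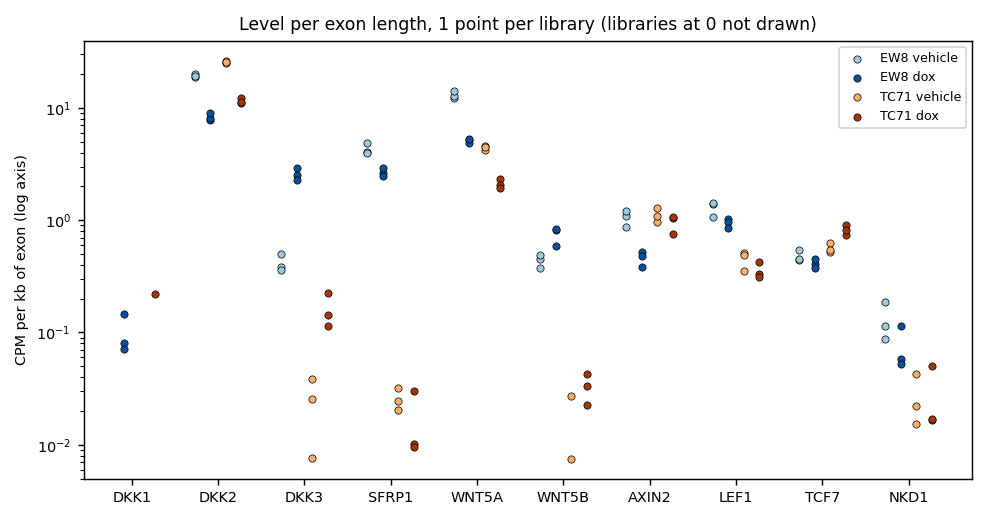
CPM per kilobase of exon (log axis) of the 10 genes, with a point for each library and a color for each of the 4 groups, and without the libraries at 0 counts. DKK2 and WNT5A are the highest genes, the readouts are near or below 1 CPM per kb, and SFRP1, DKK3 and WNT5B are far lower in TC71 than in EW8.

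The other genes of the pathway were examined as 7 lists of 95 genes in all, of which 85 are not among the 10 described above and 69 of these were tested. Of the 69, EW8 had 5 called higher and 7 lower (17.4%), beside 14.8% of all tested genes. TC71 had 13 called higher and 5 lower (26.1%), beside 16%. By direction, 11.4% of all tested genes were higher and 3.38% lower in EW8, and 12.3% and 3.67% in TC71. In EW8 the larger count was thus in the direction with the smaller share. The median log2 fold change of the 69 was -0.15 in EW8 and -0.22 in TC71. With the members counted in, 2 of 15 tested secreted antagonists were higher and 4 lower in EW8, against 2 higher and 2 lower in TC71. TRABD2A, a protease that inactivates Wnt proteins, rose in both lines, with log2 fold changes of 1.74 (EW8, adjusted p 0.000248) and 3.15 (TC71, adjusted p 7.75e-06). SOSTDC1, which binds LRP coreceptors and bone morphogenetic proteins, fell by 1.96 (adjusted p 0.000637) and 1.40 (adjusted p 0.00533). SFRP2 (from 14.03 ± 2.58 to 4.09 ± 0.441 CPM, adjusted p 3.58e-06, edgeR) and FRZB (from 7.01 ± 0.145 to 1.75 ± 0.266 CPM, adjusted p 0.000194), which are relatives of SFRP1, fell in EW8 and account with SOSTDC1 and DKK2 for the 4 lower antagonists there. They were chosen for naming after their values were seen. In TC71, SFRP2 was at the floor in all libraries and FRZB was between 0.376 and 0.566 CPM on average. APCDD1, also named after its values were seen, was the antagonist of this list whose response differed between the lines. Its log2 fold change was 0.15 in EW8 (adjusted p 0.109, edgeR) and -0.96 in TC71 (adjusted p 6.18e-09), under the fold limit. The difference was -1.11 (SE 0.11, adjusted p 5.2e-07).

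Among the ligands, 1 of 14 tested was higher and 1 lower in EW8, against 5 higher and 1 lower in TC71. WNT5A was the falling gene in each line. For this and the other lists, the shares of all tested genes were 11.4% higher and 3.38% lower in EW8. In TC71 these shares were 12.3% and 3.67%. No test was made on the counts of a list. With the adjusted p alone, 2 of the 14 ligands were higher and 1 lower in EW8, where the shares of all genes were 21.9% and 22%. In TC71, 5 were higher and 2 lower, where the shares were 25.1% and 20.4%. The response was more positive in TC71 for 4 of the 14 and more negative for 0, where the shares were 12.2% and 7.07%. WNT7B, a ligand of the canonical pathway, was at the floor in both vehicle groups and reached 4.49 ± 1.59 CPM with doxycycline in EW8, an increase of at least 33.1-fold, and 2.16 ± 0.0462 CPM in TC71, at least 18.5-fold (SD, n = 3). Among the receptors, 0 of 15 were higher and 3 were lower in EW8 by edgeR (9 of the 15 had an unadjusted p under 0.05), and 1 was higher and 2 were lower in TC71. FZD1, a Frizzled receptor, fell in EW8 from 163 ± 1.18 to 56.6 ± 5.12 CPM (-1.53 on the log2 scale, adjusted p 1.08e-09, edgeR) and from 122 ± 24.7 to 51.1 ± 3.52 CPM in TC71 (-1.25, adjusted p 1.38e-08). ROR2, a receptor for WNT5A, was not called in EW8 (-0.84, adjusted p 0.0168) and in TC71 reached the floor with doxycycline, a decrease of at least 6.25-fold. The response of ROR2 differed between the lines by -1.99 (SE 0.49, adjusted p 0.00695).

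**Figure D5:**
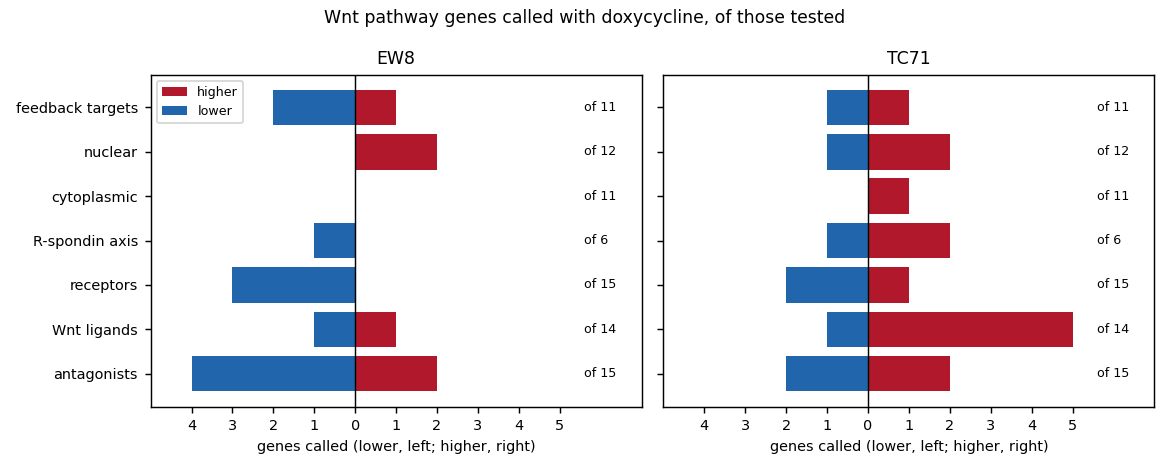
Number of genes called lower (blue, to the left) and higher (red, to the right) with doxycycline in each of the 7 Wnt pathway lists, members included, for EW8 and TC71, with the number tested at the right. In TC71, 5 of 14 ligands were called higher, against 1 of 14 in EW8. These counts do not test whether the lines differ. Of all tested genes, 12.3% were called higher and 3.67% lower in TC71, and 11.4% and 3.38% in EW8.

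Of the R-spondin axis, which controls the turnover of Frizzled receptors, 1 of 6 tested genes was lower in EW8, and 2 were higher and 1 was lower in TC71. The 2 higher genes were at the floor in both EW8 groups. For the lists of this paragraph, the shares of all tested genes were 11.4% higher and 3.38% lower in EW8. In TC71 they were 12.3% and 3.67%. The falling gene in both was LGR5, an R-spondin receptor and itself a target of beta-catenin, at 9.99 ± 0.357 and 4.02 ± 0.119 CPM in EW8 and 9.85 ± 1.23 and 1.08 ± 0.137 CPM in TC71 (SD, n = 3, log2 fold changes -1.31, adjusted p 7.35e-07, and -3.19, adjusted p 1.82e-11, edgeR). Its response differed between the lines by -1.88 (SE 0.22, adjusted p 6.16e-06), in the opposite direction to that of AXIN2. Of 11 cytoplasmic components, 0 were called in EW8 by edgeR (6 had an unadjusted p under 0.05) and 1, the Dishevelled gene DVL1 (1.30, adjusted p 5.03e-10), was higher in TC71. DVL1 also rose in EW8 (0.73, adjusted p 1.73e-06), under the fold limit. With the adjusted p alone, 4 of these 11 were higher and 1 lower in EW8, where the shares of all genes were 21.9% and 22%. In TC71, 6 were higher and 1 lower, where the shares were 25.1% and 20.4%. Of 12 nuclear factors, 2 were higher and 0 lower in EW8, against 2 higher and 1 lower in TC71. The rising genes were BCL9 and BCL9L, coactivators that bind beta-catenin, with log2 fold changes of 1.23 and 1.40 in EW8 and 1.02 and 1.10 in TC71. The call of BCL9 in TC71 lay just over the fold limit and was lost under 8 alternatives, 4 of which left out a library (EW8 vehicle replicate 3, TC71 vehicle replicate 1, or TC71 doxycycline replicate 1 or 2). Of 11 tested feedback targets, which include the 4 readouts, 1 was higher and 2 were lower in EW8, and 1 was higher and 1 was lower in TC71. The rising gene was TNFRSF19, a TNF receptor family member induced by beta-catenin in other cells, from 3.64 ± 0.337 to 28.8 ± 1.73 CPM in EW8 and from 3.85 ± 0.259 to 14.6 ± 1.07 CPM in TC71 (SD, n = 3), with log2 fold changes of 2.99 (adjusted p 5.02e-13, edgeR) and 1.92 (adjusted p 1.85e-10). The response of TNFRSF19 differed between the lines by -1.07 (SE 0.17, adjusted p 0.000128, edgeR), as with LGR5 in the opposite direction to that of AXIN2. The falling genes were LGR5 in both lines and AXIN2 in EW8. With the adjusted p alone, 1 of the 11 feedback targets was higher and 5 were lower in EW8, where the shares of all genes were 21.9% and 22%. In TC71, 2 were higher and 4 lower, where the shares were 25.1% and 20.4%. The median log2 fold change of the 11 was -0.44 in EW8 and -0.33 in TC71. The called targets thus moved in both directions, while by the adjusted p alone more of the 11 were lower than higher.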

How the data were processed

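RNA-seq of polyadenylated RNA from 12 libraries was analyzed. The authors aligned read pairs to hg38 with STAR and counted them with featureCounts (2.0.1) on GENCODE release 29 exons. The deposited table gives raw counts for each gene. Per the file headers, mates were counted separately and without regard to strand, while multi-mapped reads and those on several genes were dropped, so counts of overlapping genes and close paralogs are uncertain. The exon length in base pairs in the deposited table served to give levels per kilobase. Symbols were matched by identifier for 58207 of 58721 genes.

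Groups were taken from the sample labels. Counts were filtered with filterByExpr (21013 genes, 99.95% of counts), scaled with TMM and fitted in a single edgeR 4.0.16 quasi-likelihood model of the 12 libraries in R 4.3.3, with p-values adjusted by Benjamini-Hochberg over all tested genes. Genes with an adjusted p below 0.05 were called where the log2 fold change exceeded 1 in size, and the difference between the lines at the adjusted p alone. Each edgeR SE is the size of the log2 fold change divided by the square root of the F statistic of its test. Such an SE is approximate, most of all where the change is small. Where a group was at the floor of 6 counts in every library, a fold is a bound against it. The bound is the mean of the other group over the highest floor of that group's libraries in CPM. It makes no allowance for counting error or spread in the group with the higher level. DESeq2 1.42.0, which the authors used, and limma 3.58.1 (voom), other scalings, filters, a replicate block and leaving out each library were alternatives. The scripts were tested on simulated data. The members and the pathway lists were chosen with earlier results of these data known. All members were described. Other genes of the lists were named where they were called in the same direction in both lines or had the largest called change of a list in a line, with the higher group above the floor, and JUN and FOS were named as the check of the induction. SFRP2, FRZB and APCDD1 were named outside this rule, after their values were seen.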

Additional observations from a re-analysis of the deposited data

Results flagged for a closer look

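The responses of AXIN2 and TCF7 to doxycycline differed between the lines by the interaction term of the edgeR fit. The difference, TC71 minus EW8 on the log2 scale, was 0.97 (SE 0.28, adjusted p 0.0196) for AXIN2 and 0.76 (SE 0.22, adjusted p 0.0207) for TCF7. With AXIN2, 3 of 3 EW8 libraries with doxycycline lay below all EW8 vehicle libraries, while the TC71 groups overlapped. With TCF7, 3 of 3 TC71 libraries with doxycycline lay above all TC71 vehicle libraries, while the EW8 groups overlapped. Among the 19 alternatives that gave a value, AXIN2 kept its call in 15 (adjusted p from 0.0109 to 0.0988) and TCF7 in 13 (adjusted p from 0.011 to 0.111).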

How the results depend on the processing

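DESeq2, limma-voom, other scalings, other filters, each line fitted alone, a replicate block, no fold limit and leaving out each of the 12 libraries gave 840 fold changes of the members, of which 816 stayed on the same side of the threshold, 20 lost the call, 4 gained it and 0 called values changed sign. Of the 816, 25 uncalled values changed sign, namely for NKD1 in TC71 (-0.74 to 0.56), AXIN2 between the lines under vehicle (-0.05 to 0.22) and the difference in response for SFRP1 (lowest -0.73), DKK3 (-0.41), LEF1 (-0.15) and DKK2 (-0.07). Without the filter on low counts, 2 members (and 2 antagonists) were called higher in each line in place of 1, the addition being DKK1. With at least 10 counts in every library, 0 were called higher in either line, since DKK3 was no longer tested, and 3 members were lower in TC71 than in EW8 in place of 6 under both treatments, with 0 higher under doxycycline. With no fold limit, 2 antagonists were lower in EW8, 2 members and 1 readout were higher in TC71, and 1 member under vehicle and 3 under doxycycline were higher in TC71 than in EW8. Under doxycycline, limma-voom called 2 members higher in TC71 than in EW8 and library size alone 0, in place of 1. Leaving out single libraries gave 1 to 2 members and 0 to 1 ligands higher in TC71, 0 to 2 members with a more positive response in TC71, and 0 to 2 members higher in TC71 than in EW8 under doxycycline. Over all genes, the calls with doxycycline in EW8 went from 2401 higher and 711 lower to 1255 and 345 with at least 10 counts in every library and to 4598 and 4618 with no fold limit, and in TC71 from 2583 and 772 to 1362 higher with the former and to 5283 and 4295 with the latter. The calls between the lines went from 3974 to 1874 lower under vehicle, and from 2642 higher and 3874 lower to 1550 and 1914 under doxycycline, with at least 10 counts, and without the fold limit to 5936 higher and 7038 lower under vehicle (from 2446 and 3974) and 6342 and 6793 under doxycycline. Genes with a more positive response in TC71 went from 2572 to 1653 with at least 10 counts. The cause of these changes, other than the filters' own construction, was not tested.

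The replicate block, a replicate number nested in the line, was run although same-numbered libraries did not deviate together (correlations of their deviations from the group means from -0.028 to 0.0098), and of 87 results it left 86 on the same side of the threshold, the exception being the difference in response between the lines for BCL9L (-0.29, adjusted p 0.0383). This difference did not pass as reported (-0.29, adjusted p 0.073) and also passed with DESeq2 (0.029), median-ratio scaling (0.0423), library size alone (0.0364), no filter (0.0478), at least 10 counts in every library (0.0125) and without each of 4 single libraries. With it, the log2 fold changes of DKK2 were -1.22 in EW8 and -1.16 in TC71.

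The 3 libraries in each group limit what can be seen: the SE of a log2 fold change was 0.07 to 0.08 for DKK2 and WNT5A, at 633 to 7078 counts per library, and 0.49 and 0.68 for SFRP1 and WNT5B in TC71, at a few counts.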
